A study of Homo sapiens with 14 samples.

Results

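Transcripts of 5 genes that have a start in a copy of the retrovirus HERVH and are known from human embryonic stem cells (hESC), ESRG, LINC00458, ABHD12B, HHLA1 and SCGB3A2, were followed from hESC to endoderm and foregut. These 5 genes were chosen by name out of the 63677 genes of the table, and to each were joined the integrants (single genomic copies) named HERVH-int or LTR7 that overlap its body on hg19 by at least 1 base. There were 7 such integrants of 2175 in the whole table, and 6 of them held at least 3 reads in 1 library.

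HERVH is an endogenous retrovirus of primates, and LTR7 is the long terminal repeat that flanks its internal part, HERVH-int. An LTR carries the promoter and the polyadenylation signal of a provirus, so a gene next to it can be transcribed from it. LTR7 copies are known to be bound in hESC by POU5F1, NANOG, SOX2, KLF4 and TFCP2L1, and HERVH RNA is a known feature of human pluripotent cells. ESRG and LINC00458 are long non-coding RNAs known from hESC. ABHD12B encodes a protein of the alpha/beta-hydrolase fold family, HHLA1 was named for its association with a HERVH LTR, and SCGB3A2 encodes a secretoglobin, a small protein secreted by airway epithelium.

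RNA was measured in 12 bulk libraries of H9, an established hESC line. The 2 hESC libraries came from cells kept in mTSER Plus on matrigel. The 3 control endoderm libraries (DE_ctl) came from cells that expressed dCAS9-KRAB, a nuclease-dead Cas9 fused to a repressor domain, without an sgRNA, and that received 100 ng/ml Activin A for 3 days with the GSK-3 inhibitor CHIR at 5 µM on the first day and 0.5 µM on the second. The 3 LTR5 CRISPRi endoderm libraries (DE_CRISPRi) carried in addition an sgRNA against LTR5, the LTR of the retrovirus HERVK. The 2 control foregut (FG_ctl) and 2 LTR5 CRISPRi foregut (FG_CRISPRi) libraries came from cells given 3 days of endoderm and 3 days of foregut differentiation. For these the study's methods name a commercial pancreatic protocol without its doses, so its endoderm step can differ from that above. The vector was lentiviral and cells were selected in puromycin. The labels of the hESC libraries name neither dCAS9-KRAB nor selection, so the vector and the differentiation cannot be told apart in a comparison with hESC. Nothing in the labels says that libraries of a group came from separate cultures, and p-values then measure the spread between these libraries only. RNA and accessible chromatin were also read in nuclei of 1 preparation of gastruloids, aggregates of 800 H9 cells per well that elongate and were harvested at 72 h.

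Libraries held between 11583063 and 37152434 gene reads. A count of 0 allowed up to 3 reads, which is 0.0760 to 0.252 CPM, the usual depth-scaled read count, here with TMM factors, and this limit covers counting error only. The 4 foregut libraries stood apart. In them 4.23% to 5.40% of the integrants detected had a single read, against 46.5% to 65.0% in the other 8 libraries with a median of 12 to 31 reads per integrant detected against 1 to 2, so their integrant reads lay in deep pile-ups. Gene reads did likewise, with 2.59% to 3.28% of the genes detected at 1 to 3 reads against 17.0% to 20.8%, and 15005 to 17926 genes detected against 19678 to 20973. How many molecules the counts of 16 to 76 reads given below for foregut stand for was not tested, and the limit of 3 reads does not cover such pile-ups. Foregut libraries were all of this kind and no other library was. Foregut as a stage and this kind of library cannot be told apart in comparisons with hESC or endoderm. The summed level of 8 endoderm markers (SOX17, GATA6, CER1 and others) was 28.3 to 42.6 CPM in hESC, with SOX17, GATA4 and GATA6 at 0, 5401 to 6034 in control endoderm and 783 to 976 in control foregut. The 6 mesoderm markers (TBXT, MIXL1 and others) summed to 2.17 to 3.50 CPM in hESC and 689 to 1045 in control endoderm. MIXL1 alone measured 977, 644 and 877 CPM there. Group means of the others were 24.1 CPM for TBXT, 17.0 for HAND1, 14.7 for TBX6, 4.55 for MESP1 and 0.0995 for MSGN1. Endoderm cultures thus held RNA of these genes, MIXL1 above all, and the part of mesoderm cells in the changes below was not tested. The 8 markers of undifferentiated cells summed to 2967 to 3746 CPM in hESC and 2119 to 2722 in control endoderm. In control foregut they summed to 757 to 1055 CPM, mostly from LIN28A (811 and 570) and SOX2 (193 and 141). LIN28A measured 467 and 904 CPM in hESC, and SOX2 151 and 159. NANOG was at 0 in control foregut, and none of the other markers was above 20.7 CPM there. This foregut sum is therefore no measure of the markers as a set. The targeted LTR5_Hs integrants summed to 18.5 to 19.0 CPM in control and 11.8 to 13.7 in CRISPRi endoderm, and LTR5B to 4.92 to 5.74 and 1.67 to 3.24. In foregut, LTR5_Hs overlapped between control and CRISPRi (8.24 to 9.76 against 5.00 to 9.91 CPM) and LTR5B did not (8.74 to 13.3 against 3.90 to 6.31). LTR5A was higher with the sgRNA, which was designed on the LTR5B consensus: 38.2 to 65.5 CPM in control and 88.2 to 108 in CRISPRi endoderm.

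On GRCh37, each of the 5 genes had an annotated transcript start inside its integrant. ESRG (chr3:54666149-54673884, minus strand) had 1 annotated transcript, which starts 347 bases into a provirus of 5721 bases (chr3:54668511-54674231) with an LTR7 at each end in the direction of the gene, and 71.6% of its exon bases lie in the provirus. LINC00458 (chr13:54524390-54844532, minus strand) had 16 annotated transcripts, of which 15 start in retroviral sequence. Of these, 10 start between 54706954 and 54707001, the latter 292 bases into a provirus of 5741 bases (chr13:54701553-54707293) on the strand of the gene. The other 5 start in a partial provirus of 2602 bases at the far end of the gene (chr13:54842277-54844878), which has a single LTR7 and lies on the opposite strand. A solo LTR7 between them (chr13:54785477-54785880) had 0 reads in every library. The exons of LINC00458 lie in integrants for 9.09% of their bases.

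Among the protein-coding genes, ABHD12B (chr14:51338771-51371688, plus strand) held a provirus of 3721 bases (chr14:51359880-51363600) in its body, and 2 of 9 transcripts start in it, ABHD12B-206 at 420 bases from its upstream edge. HHLA1 (chr8:133073727-133123406, minus strand) held one of 5765 bases (chr8:133092485-133098249), and 1 of 3 transcripts starts 4898 bases into it. SCGB3A2 (chr5:147250245-147261754, plus strand) differs in orientation: its provirus of 4691 bases (chr5:147249399-147254089) lies on the opposite strand, and 3 of 4 transcripts start in it, the first 846 bases from its edge. For these 3 genes no start in the provirus belongs to the transcript annotated as canonical. The share of exon bases in the provirus was 52.0% for SCGB3A2, 16.3% for ABHD12B and 15.9% for HHLA1. A gene and its provirus thus share sequence. To keep genes and integrants apart, the authors gave both to the read counter in a single annotation. The sources used here do not say further whether a read that lies in both an exon and an integrant was counted for the gene, for the integrant, for both or for neither, nor whether strand was used, and the table of integrants has no strand. Gene reads and integrant reads are therefore given side by side and were never added.

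**Figure D1:**
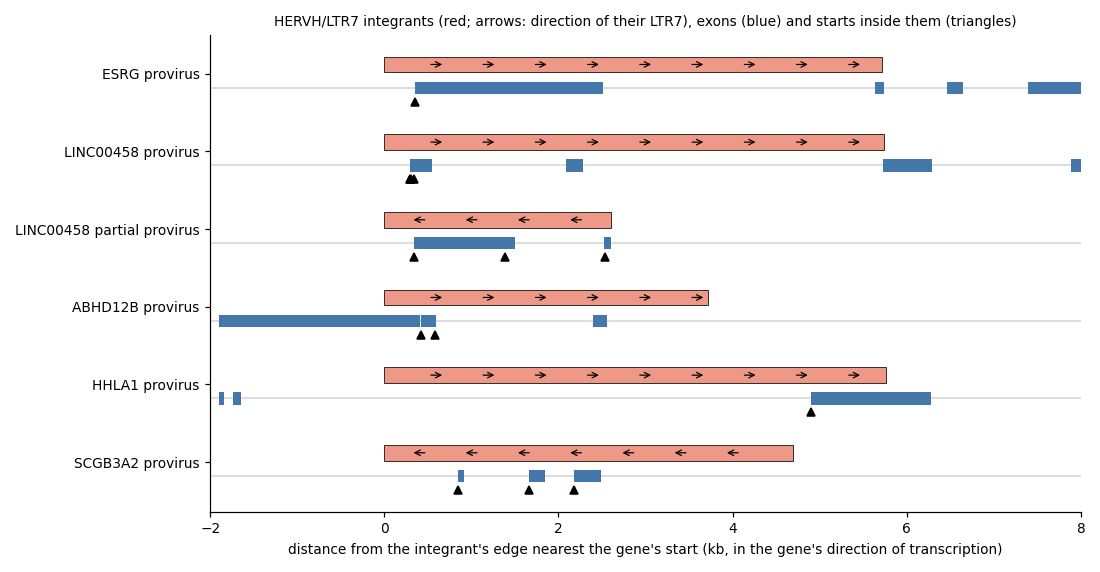
Map of the 6 integrants with reads (red, with arrows in the direction of their LTR7), the annotated exons of the gene around each (blue) and transcript starts inside it (triangles), against distance from the integrant's edge nearest the gene's start in kb, in the gene's direction of transcription. Starts of ESRG-201, LINC00458-201 and ABHD12B-206 lie 347, 292 and 420 bases into a provirus that points the same way, HHLA1-202 starts 4898 bases into its own, and the partial provirus of LINC00458 and the provirus of SCGB3A2 point against the gene.

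Levels of the 5 genes differed widely by stage. Reads were counted per gene over all its transcripts and cannot be assigned to the starts in HERVH. LINC00458 measured 0.384 and 0.442 CPM in the 2 hESC libraries, 60.5, 59.7 and 50.2 CPM in control endoderm, and 0 and 1.93 CPM in control foregut. It was thus under 1 CPM in hESC, high in control endoderm and low again in control foregut. ESRG ran the other way, with 63.9 and 66.7 CPM in hESC, 36.4, 24.9 and 19.2 CPM in control endoderm and 0 in both control foregut libraries. SCGB3A2 measured 38.9 and 50.1 CPM in hESC, 5.32, 9.82 and 6.76 CPM in control endoderm and 0 in foregut. Neither ESRG nor SCGB3A2 overlapped between any of these 3 stages. The share of all genes or integrants whose groups do not overlap was not worked out. Statements of no overlap, here and below, cannot be weighed against it.

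The other 2 genes were low everywhere. ABHD12B measured 1.54 and 0.683 CPM in hESC, 5.82, 2.48 and 2.42 CPM in control endoderm and 0 in both control foregut libraries. HHLA1 measured 3.33 and 3.94 CPM in hESC, 4.38, 3.58 and 1.91 CPM in control endoderm and 0 in foregut, so its hESC and endoderm values overlapped and those of ABHD12B did not.

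Per kilobase of annotated exon, levels can be set beside each other, although the annotation used here is not the one the reads were counted on. In hESC the order was SCGB3A2 (36.2 and 46.6 CPM per kb), ESRG (20.4 and 21.2), HHLA1 (0.612 and 0.723), ABHD12B (0.338 and 0.150) and LINC00458 (0.0206 and 0.0237), and no neighbours in this order overlapped. In control endoderm ESRG (6.13 to 11.6 CPM per kb) and SCGB3A2 (4.95 to 9.14) overlapped, LINC00458 followed (2.69 to 3.24), and ABHD12B (0.532 to 1.28) and HHLA1 (0.351 to 0.804) overlapped.

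**Figure D2:**
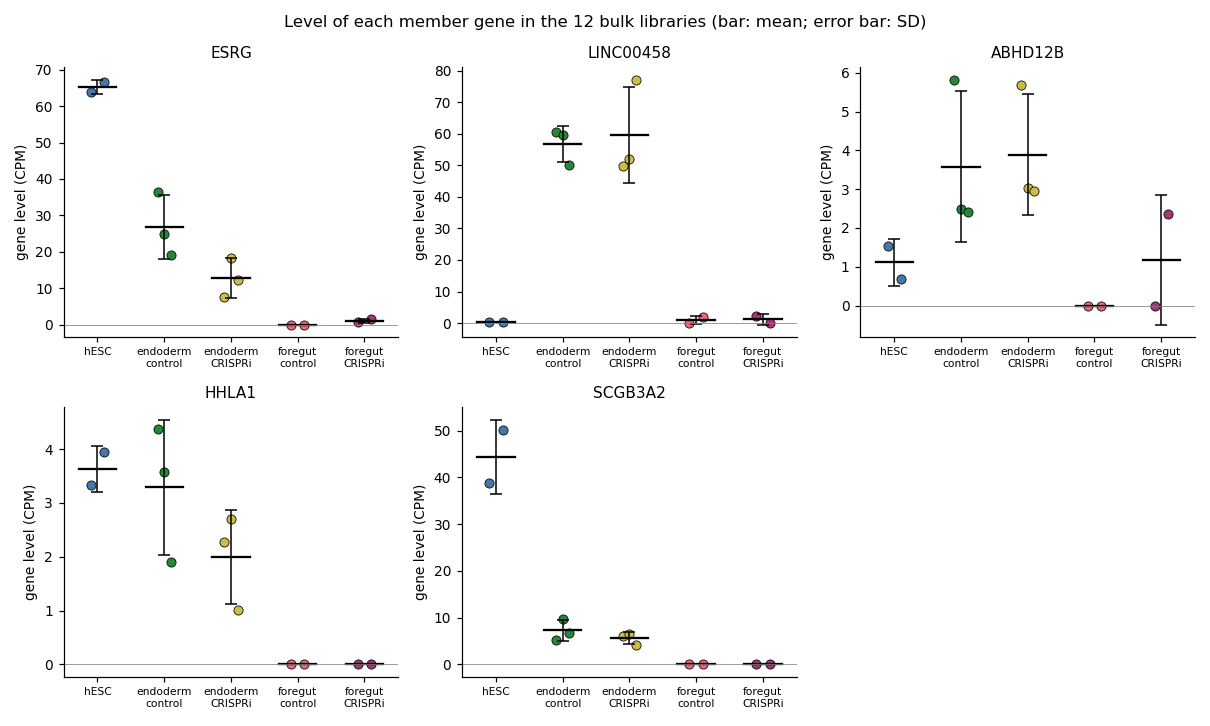
Level of each gene (y axis, CPM, from 0) in the 12 bulk libraries by group (x axis). Points are libraries, the line is the group mean and the error bar is the SD (n = 2 or 3 libraries). LINC00458 stood at 49.9 to 77.2 CPM in the 6 endoderm libraries and at 2.34 CPM or less elsewhere, ESRG and SCGB3A2 were highest in hESC, and in foregut SCGB3A2 and HHLA1 were at 0, ESRG was at 1.45 CPM or less, and ABHD12B and LINC00458 reached 2.37 and 2.34 CPM in 1 CRISPRi library each.

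From hESC to control endoderm, 4 of the 5 genes passed the test, 2 in each direction. LINC00458 rose from 0.413 ± 0.0407 (SD, n = 2) to 56.8 ± 5.76 CPM (n = 3), 137-fold, with a log2 fold change of 7.08 (SE 0.30, edgeR adjusted p = 2.34e-10). ABHD12B rose 3.22-fold (log2 fold change 1.69, SE 0.47, adjusted p = 0.00908). That call was lost in 1 fit over all 12 libraries (adjusted p = 0.333) and without the second hESC library (1.22, adjusted p = 0.183), and it rests on 36 and 17 reads in hESC. ESRG fell 2.43-fold (log2 fold change -1.28, SE 0.24, adjusted p = 0.000475) and SCGB3A2 6.09-fold (log2 fold change -2.60, SE 0.25, adjusted p = 1.04e-06). HHLA1 did not pass, with a log2 fold change of -0.13 and a 95% interval from -0.80 to 0.54. In the same comparison 14.2% of the 20818 genes tested were called higher and 11.8% lower. In bulk RNA, fewer cells that express a gene and less RNA per cell cannot be told apart.

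The integrants inside the genes did not all follow them. The ABHD12B provirus measured 1.67 and 1.81 CPM in hESC and 26.5, 15.5 and 12.5 CPM in control endoderm, a 10.4-fold rise (log2 fold change 3.38, SE 0.44, adjusted p = 3.04e-12), against 3.22-fold for the gene. The LINC00458 provirus measured 0.897 and 1.0 CPM in hESC and 2.74, 5.51 and 4.59 CPM in control endoderm, a 4.50-fold rise (2.16, SE 0.49, adjusted p = 0.000544), against 137-fold for the gene. Both were called higher, where 3.13% of the 37289 integrants tested were. Endoderm and hESC libraries did not overlap for either.

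The other 4 integrants did not pass the edgeR test, although that of HHLA1 did in 4 of 10 alternatives. The ESRG provirus measured 78.4 and 84.3 CPM in hESC and 54.7, 47.5 and 30.8 CPM in control endoderm (log2 fold change -0.87, SE 0.33, adjusted p = 0.125), with no overlap of the groups. The HHLA1 provirus measured 7.30 and 4.90 CPM in hESC and 2.34, 2.48 and 2.80 CPM in control endoderm (-1.26, SE 0.42, adjusted p = 0.0580, and 0.00155 with limma-voom), again with no overlap, while the gene stayed within its spread. The SCGB3A2 provirus measured 8.37 and 9.52 CPM in hESC and 11.1, 12.9 and 7.84 CPM in control endoderm (0.25, SE 0.38, adjusted p = 0.639), so it overlapped between the stages at which the gene differed 6.09-fold. The partial provirus of LINC00458 measured 2.43 and 1.85 CPM in hESC and 3.28, 4.36 and 3.38 CPM in control endoderm (0.78, SE 0.45, adjusted p = 0.503).

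**Figure D3:**
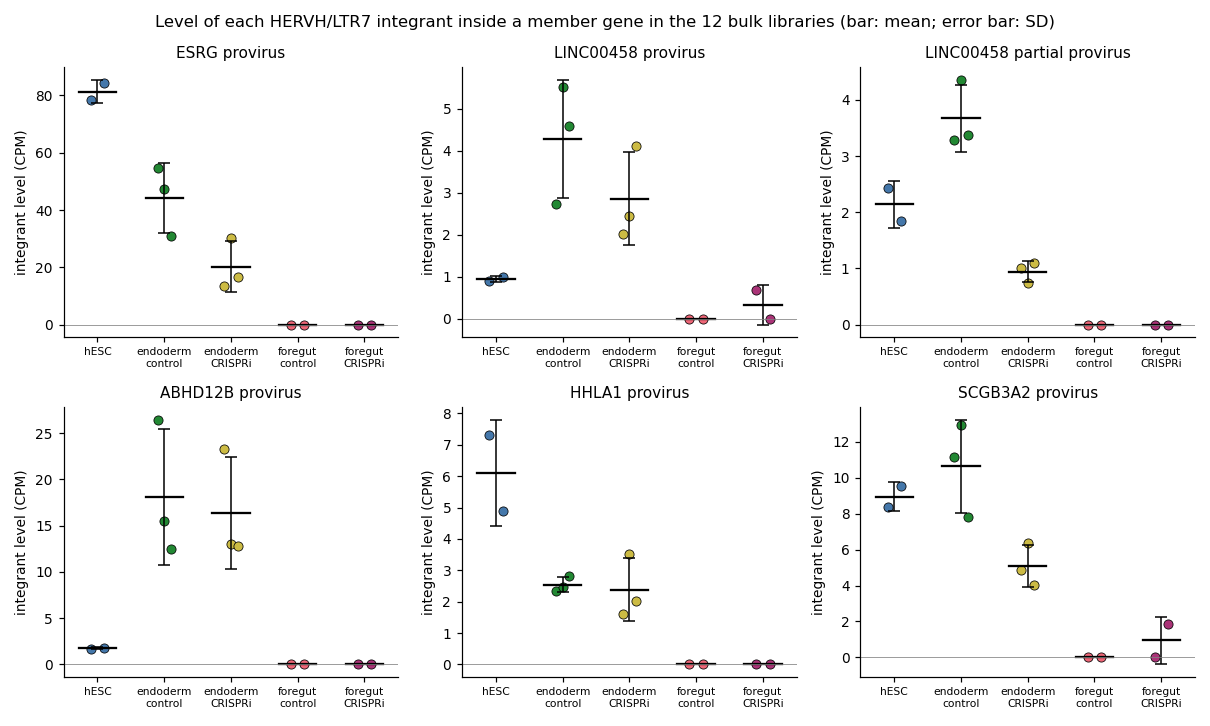
Level of each HERVH or LTR7 integrant inside the 5 genes (y axis, CPM of gene reads, from 0) in the 12 bulk libraries by group (x axis). Points are libraries, the line is the mean and the error bar the SD (n = 2 or 3 libraries). The ABHD12B provirus lay between 12.5 and 26.5 CPM in the 6 endoderm libraries against 1.67 and 1.81 in hESC, the ESRG provirus was highest in hESC, and foregut libraries were at 0 but for 1 CRISPRi library each for LINC00458 and SCGB3A2.

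The ratio of integrant reads to gene reads puts this difference within a library, where depth and scaling cancel. For SCGB3A2 there were 0.215 and 0.190 integrant reads per gene read in hESC and 2.09, 1.32 and 1.16 in control endoderm. For LINC00458, with its integrants summed, the ratio was 8.67 and 6.45 in hESC, on 9 and 11 gene reads, and 0.0994, 0.165 and 0.159 in control endoderm. ABHD12B moved from 1.08 and 2.65 to 4.55, 6.24 and 5.16. None of these 3 ratios overlapped between the stages. That of ESRG stayed closest, at 1.23 and 1.26 in hESC and 1.5, 1.91 and 1.60 in control endoderm, and did not overlap either. That of HHLA1 was 2.19 and 1.24 in hESC and 0.534, 0.692 and 1.47 in endoderm, which overlap. These ratios are descriptions and were not tested.

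**Figure D4:**
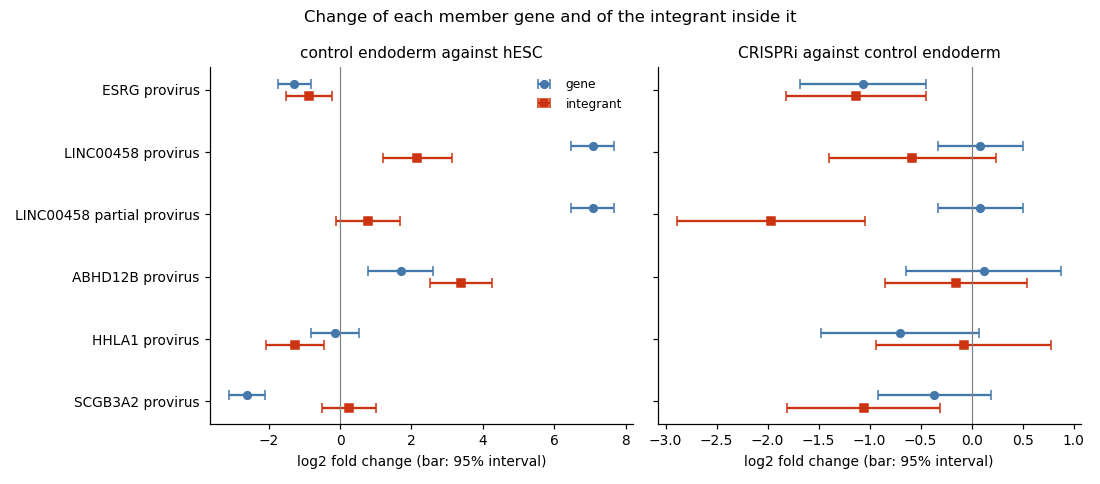
Log2 fold change (x axis) of each gene (blue circles) and of the integrant inside it (red squares), on the left for control endoderm against hESC and on the right for CRISPRi against control endoderm, with bars for the 95% interval. The LINC00458 gene is drawn beside both of its integrants. On the left the LINC00458 gene lies at 7.08 and its provirus at 2.16, and the SCGB3A2 gene lies at -2.60 and its provirus at 0.25. On the right the partial provirus of LINC00458 lies lowest, at -1.97.

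The LTR5 sgRNA tests whether the levels of these genes move when another retroviral LTR is repressed. None of the 5 genes was called between CRISPRi and control endoderm by edgeR, DESeq2 or limma-voom. In edgeR 0.0343% of the 20407 genes tested were called in either direction. At an unadjusted p under 0.05 there was 1 in each tool, ESRG. The share of all genes at that threshold was not worked out, so this count cannot be weighed against it. ESRG measured 7.49, 18.4 and 12.2 CPM in the CRISPRi libraries against 36.4, 24.9 and 19.2 in the controls, with no overlap. It was 2.12-fold lower (log2 fold change -1.07 with an SE of 0.31, edgeR adjusted p = 0.524, from 0.00472 before adjustment). Without a filter on low counts its adjusted p was 0.00140, and of the alternatives run, that and the unadjusted threshold were the ones in which it was called.

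The other 4 genes overlapped between CRISPRi and control endoderm. LINC00458 measured 49.9, 52.1 and 77.2 CPM with the sgRNA, with a log2 fold change of 0.09 and a 95% interval from -0.33 to 0.50. ABHD12B measured 5.68, 3.04 and 2.94 CPM (0.12, interval -0.64 to 0.88). SCGB3A2 measured 6.15, 6.52 and 4.20 CPM (-0.36, interval -0.92 to 0.19), and HHLA1 2.27, 2.70 and 1.01 CPM (-0.70, interval -1.47 to 0.07).

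Of the 6 integrants, none was called between CRISPRi and control endoderm by edgeR, where 0.0313% of the 28741 integrants tested were. By limma-voom 2 were called, and 3 had an unadjusted p under 0.05 in edgeR, all lower. The share of all integrants that limma-voom called or that had such a p was not worked out, so those counts cannot be weighed against it. The partial provirus of LINC00458 measured 1.0, 0.736 and 1.09 CPM with the sgRNA against 3.28, 4.36 and 3.38 in the controls. It was 3.89-fold lower with no overlap (log2 fold change -1.97, SE 0.47, adjusted p = 0.0858), and below the threshold in 5 alternatives, among them limma-voom (adjusted p = 0.00329) and a minimum of 10 reads in total (adjusted p = 0.0268). An LTR5_Hs integrant, of a subfamily that the sgRNA lowered, lies 375 bases from it within the body of LINC00458 (chr13:54840942-54841901). That LTR5_Hs integrant itself held 2, 1 and 1 reads in the control endoderm libraries and 0 in the other 9. Whether it was repressed cannot be told from so few reads, and any bearing of it on the partial provirus was not tested.

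The nearest LTR5_Hs or LTR5B integrant lay 99771 bases from ESRG, 2060282 from SCGB3A2, 4119580 from ABHD12B and 5303183 from HHLA1. The ESRG provirus measured 13.6, 30.4 and 16.6 CPM with the sgRNA against 54.7, 47.5 and 30.8 (log2 fold change -1.13, SE 0.35, adjusted p = 0.533, and 1.01e-06 with limma-voom). The second CRISPRi library lay just under the third control library. The SCGB3A2 provirus measured 4.88, 6.38 and 4.04 CPM against 11.1, 12.9 and 7.84 (-1.06, SE 0.38, adjusted p = 0.657). These 2 proviruses did not overlap between the groups, and the share of all integrants that do not was not worked out. The sum of the markers of undifferentiated cells was 1729 to 2236 CPM with the sgRNA against 2119 to 2722, which overlap, and NANOG measured 5.88, 18.5 and 13.6 CPM against 27.3, 30.3 and 22 (-1.05, SE 0.33, adjusted p = 0.580). The mesoderm markers summed to 880 to 1234 CPM with the sgRNA against 689 to 1045, which overlap, and HAND1 among them measured 53.0, 37.2 and 47.4 CPM against 13.6, 11.7 and 25.6 (1.45, SE 0.28, adjusted p = 0.199). The part of any of these in the lower ESRG was not tested. The proviruses of LINC00458 (2.01, 2.45 and 4.12 CPM), ABHD12B (23.3, 13.0 and 12.8) and HHLA1 (1.60, 3.53 and 2.02) overlapped with their controls.

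In control foregut 4 of the 5 genes were at 0 in both libraries, and LINC00458 in 1. All 5 were called lower in control foregut than in control endoderm, where 15.0% of the 21466 genes tested were. No fold is given for ESRG, SCGB3A2, ABHD12B and HHLA1, with 0 reads in both control foregut libraries, since reads of these libraries came in pile-ups and a count of 0 there allows more than 3 reads. LINC00458 was 59.0-fold lower (log2 fold change -5.80, SE 0.97, adjusted p = 0.00189), with 76 reads in one control foregut library and 0 in the other. Its log2 fold change was -4.87 without the first of these libraries, which is at 0, and -13.27 without the second, and it was called in both. The 6 integrants were at 0 in both control foregut libraries and all 6 were called lower than in control endoderm, where 1.97% of the 51321 integrants tested were. These calls cannot tell the foregut stage from the kind of its libraries.

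Against hESC, 4 genes were called lower in control foregut by edgeR, where 16.6% of the 21191 genes tested were. They were ESRG (adjusted p = 5.71e-05), SCGB3A2 (7.96e-05), HHLA1 (0.000974) and ABHD12B (0.0159). Here too stage and kind of library cannot be told apart. The call of ABHD12B was lost without either hESC library (adjusted p = 0.387 and 0.0767). LINC00458 was not called (log2 fold change 1.21, SE 1.73, adjusted p = 0.594). Its direction rests on 1 library, since it was called higher without the first control foregut library (2.21, adjusted p = 0.000407) and lower without the second (-6.46, adjusted p = 0.0145). Of the 6 integrants 5 were called lower, where 0.649% of the 57474 tested were, and 3 without the first hESC library. The LINC00458 provirus, at 0.897 and 1.0 CPM in hESC and 0 in control foregut, was the one not called by edgeR (adjusted p = 0.0922), and it was called lower in 5 of 9 alternatives, among them limma-voom (0.00108).

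Between CRISPRi and control foregut, reads were too few for most comparisons. ESRG had 0 reads in both controls and 16 and 33 reads with the sgRNA (0.567 and 1.45 CPM). ABHD12B had 54 reads in 1 CRISPRi library and 0 in the other 3, and LINC00458 had 66 and 0 reads with the sgRNA against 0 and 76. HHLA1 and SCGB3A2 had none. None of the 3 genes tested was called by edgeR, DESeq2 or limma-voom. In edgeR 0.165% of the 20044 genes tested were called. An unadjusted p under 0.05 was reached by 1 in edgeR (ABHD12B), 2 in DESeq2 (ABHD12B and ESRG) and 1 in limma-voom (ESRG). The share of all genes that reached it was not worked out, so these counts cannot be weighed against it. Of the integrants 2 were tested and none called by edgeR or limma-voom, nor had either an unadjusted p under 0.05, where 0.00713% of the 56083 tested were called. The LINC00458 provirus held 19 reads in 1 CRISPRi library and the SCGB3A2 provirus 43 in the other.

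In foregut a gene and its provirus had reads in the same library once. The 16 and 33 ESRG reads came with 0 reads in the provirus that holds 71.6% of its exon bases, the 54 ABHD12B reads with 0, and the 43 reads of the SCGB3A2 provirus with 0 gene reads. The exception was LINC00458, with 66 gene reads and 19 integrant reads in the first CRISPRi library. Its 76 gene reads in the second control library came with 0 integrant reads.

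The effect of the sgRNA on ESRG differed between the tissues in a test of that difference, by 8.58 on the log2 scale (SE 1.23, adjusted p = 0.0277), being 2.12-fold lower in endoderm and higher in foregut. It was the one called of the 5 genes, where 0.194% of the 22708 genes tested were. The fitted size is no measure of the change, since both control foregut libraries are at 0, and it rests on 16 and 33 reads in libraries whose reads lay in pile-ups. The call was lost in 6 of 13 alternatives, among them limma-voom (adjusted p = 0.0524), the fit with the replicate number as a block within tissue (0.214) and the fits without the first (0.0736) or the second (0.0919) control foregut library.

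Other genes with an annotated start in HERVH-int or LTR7 also changed in both directions. A gene was listed if any of its annotated transcripts, on either strand, starts there. By annotation alone, 85 other genes have a transcript start inside an HERVH-int or LTR7 integrant, and 59 of them could be tested between control endoderm and hESC. Of these 26 were called higher and 5 lower, against 14.2% and 11.8% of all genes, and their median log2 fold change was 1.75 against 0.04 over all genes. The 3 largest rises were LINC01356, a non-coding RNA (0 and 0.0402 CPM in hESC, 69.9, 41.7 and 31.8 in control endoderm), VWA3B (0 in hESC and 1.39, 2.25 and 3.38 CPM in control endoderm) and TRDN, which encodes triadin of muscle (0.214 and 0.281 against 32.7, 28.9 and 29.7 CPM, log2 fold change 6.90). The largest falls were LINC00678 (64.5 and 62.1 against 21.0, 13.6 and 9.24 CPM, -2.11), ZNF107, a zinc finger gene (-1.56), and HDAC2-AS2 (-1.32). From control endoderm to control foregut 25 of 58 fell, where 15.0% of all genes did, and 2 rose, with a median of -4.41 against -0.09 over all genes.

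Over all HERVH-int and LTR7 integrants tested between control endoderm and hESC, 200 of 842 were called higher and 63 lower, with a median log2 fold change of 0.57 against -1.08 over all integrants, of which 1167 of 37289 were called higher and 534 lower. In control foregut against control endoderm 338 of 820 were called lower and 6 higher, with a median of -5.94 against 3.82 over all, of which 1009 of 51321 were called lower and 2112 higher. The part of the deep pile-ups of the foregut libraries in these medians was not tested.

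Another 5 transcripts linked to HERVH in earlier work were set beside these. LINC00678 followed ESRG and SCGB3A2, as given above. LINC-ROR (0.128 and 0.0804 CPM in hESC, 0.184 to 0.298 in control endoderm), LINC01108 (0.171 and 0.442, then 0.643 to 0.828) and C4orf51 (0.342 and 0.281, then 0.249 to 0.446) were under 1 CPM and did not pass the test between these stages. OC90, next to HHLA1, had 0 reads in every library.

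Of 14 pluripotency genes 9 were called lower and 2 higher in control endoderm. Among the factors known to bind LTR7, SOX2 (log2 fold change -2.73), TFCP2L1 (-2.73) and KLF4 (-1.67, at 0.367 to 3.12 CPM) fell. NANOG measured 28.1 and 46.1 CPM in hESC and 27.3, 30.3 and 22 CPM in control endoderm (-0.48, adjusted p = 0.121). POU5F1 measured 288 and 562 against 824, 713 and 665 CPM (0.79, adjusted p = 0.0168), which is under the 2-fold threshold. In control foregut POU5F1 was at 2.56 and 4.28 CPM and NANOG at 0, while SOX2 was at 193 and 141 CPM.

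Of 23 genes within 100 kb of the 5, 8 could be tested between control endoderm and hESC. In control endoderm SPINK1, a protease inhibitor gene beside SCGB3A2, was called higher (0.0854 and 0.241 against 3.48, 2.16 and 1.34 CPM), and it rose to 422 and 177 CPM in control foregut, where SCGB3A2 was at 0. EFR3A near HHLA1 (-1.68) and NIN, a centrosomal protein gene near ABHD12B (-1.09), were called lower in endoderm. TRIM9 and KCNQ3 were called lower in foregut, as was CACNA2D3, the calcium channel subunit gene near ESRG (4.03, 3.12 and 3.25 CPM in control endoderm, 0.164 and 0.177 in control foregut).

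The genes most like each transcript across the 12 libraries, by Pearson correlation of log2(CPM + 1) among 13809 genes that averaged 1 CPM or more, are given as a description, since libraries of a group share their stage. LINC00458 was most like LRRC3 (r = 0.989), COL6A1, a collagen VI chain gene (0.989), and APOL3 (0.988). ESRG was most like TRIM37 (0.985), SNHG14 (0.984) and LRPPRC (0.982), SCGB3A2 like TSR1 (0.994), FOXD3-AS1 (0.993) and PCDHA6 (0.992), ABHD12B like FBXO27 (0.961), SUN1 (0.954) and TPST1 (0.939), and HHLA1 like the FGF receptor gene FGFR1 (0.983), SP8 (0.974) and ARFGEF2 (0.971). FOXD3-AS1 had group means of 45.6 CPM in hESC and 7.53 in control endoderm, close to the 44.5 and 7.30 of SCGB3A2.

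In the gastruloid table of 3646 nuclei and 17493 genes, ESRG and SCGB3A2 were listed and the other 3 transcripts were not. There was 1 preparation and hence no replicate, and the intervals below are exact Poisson 95% intervals that cover counting error only. ESRG had 720 unique molecular identifiers (UMIs) in 359 nuclei, or 12.0 CPM (11.2 to 12.9), and up to 25 in 1 nucleus. SCGB3A2 had 67 UMIs in 52 nuclei, or 1.12 CPM (0.866 to 1.42). With only nuclei of at least 1000 UMIs and at most 25% mitochondrial UMIs, 3422 nuclei, the levels were 11.9 and 1.12 CPM.

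ESRG was unevenly spread over nuclei split by marker genes. In the 480 nuclei with a UMI of SHH, the Hedgehog ligand of notochord and floor plate, ESRG was at 53.4 CPM (49.1 to 58.0), and in the 3166 without one at 3.18 CPM (2.70 to 3.72). Those 480 nuclei held 563 of the 720 ESRG UMIs, with a median of 20691 UMIs a nucleus against 15100. Nuclei with FOXA2, a factor of node, notochord and endoderm, were at 35.2 CPM (32.4 to 38.1) against 2.63 (2.16 to 3.16), and nuclei with TBXT, the factor of primitive streak and notochord, at 23.0 CPM (21.3 to 24.9) against 2.92 (2.37 to 3.57). These 3 sets share nuclei.

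By contrast ESRG was lower with the presomitic mesoderm genes, at 8.65 CPM (7.31 to 10.2) with TBX6 against 13.3 (12.3 to 14.5) without, and at 5.53 CPM (3.93 to 7.56) with MSGN1 against 12.9 (11.9 to 13.9). Nuclei with a POU5F1 UMI, 143 in all, were at 11.6 CPM (7.89 to 16.5) and those without at 12.0. The 73 nuclei with NANOG were at 8.09 CPM (4.18 to 14.1) against 12.1, so the intervals overlapped for POU5F1 and NANOG. For SOX2 they did not, with ESRG at 13.9 CPM (12.4 to 15.5) with it and 10.8 (9.81 to 12.0) without. The intervals take UMIs as independent and leave out the spread between nuclei. With SOX2 the 322 ESRG UMIs came from 150 nuclei, and without it 398 came from 209. SCGB3A2 was at 1.81 CPM (1.30 to 2.44) with SOX2 and 0.681 (0.441 to 1.01) without, and its intervals overlapped for each of the other 7 markers. Free RNA adds UMIs to nuclei that do not make a transcript, and its part in these levels was not tested.

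**Figure D5:**
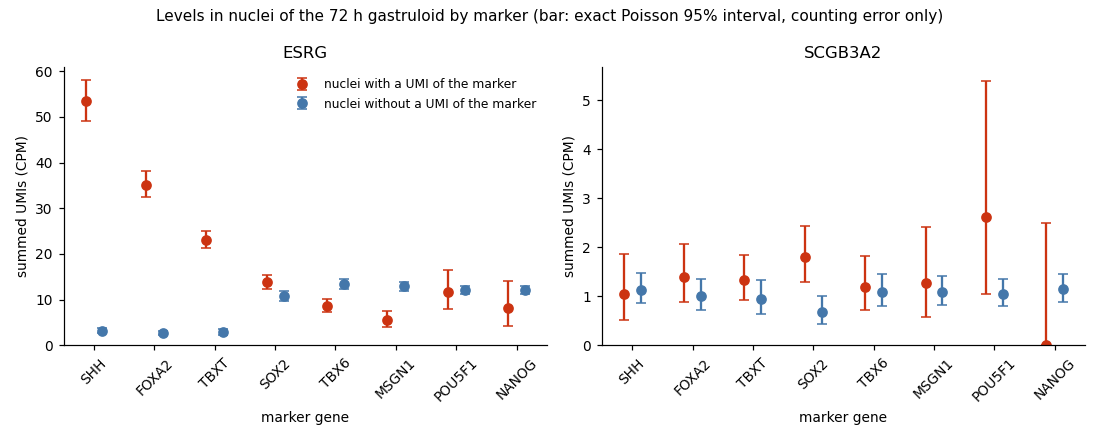
Summed UMIs of ESRG and SCGB3A2 (y axis, CPM, from 0) in nuclei of the 72 h gastruloid with and without a UMI of each marker gene (x axis), with exact Poisson 95% intervals for counting error only and 1 preparation. ESRG was at 53.4 CPM in nuclei with SHH and 3.18 in those without, and at 35.2 against 2.63 for FOXA2. Its intervals with and without POU5F1 or NANOG overlapped, and those with and without SOX2 did not. The spread between nuclei is not in these intervals.

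Accessible peaks were called over all nuclei, 205374 in number, on GRCh38. On that build ESRG had 3 peaks over its RefSeq body and start: chr3:54639779-54640480, from -623 to 78 bases relative to the start, chr3:54639088-54639659, and chr3:54637441-54638301. The RefSeq promoter window of ABHD12B, which is not its LTR7 start, overlapped a peak (chr14:50871715-50872611), and that of SCGB3A2 did not, as 58.4% of 35116 RefSeq promoters did. Over the RefSeq bodies on GRCh38 there were 3 peaks for ABHD12B, 3 for HHLA1, 1 for LINC00458 (chr13:54124324-54132871) and none for SCGB3A2 (chr5:147878711-147882191). The last 2 bodies are shorter than the gene bodies on GRCh37 given above, and the rest of those genes was not searched for peaks. The peak list has no level per nucleus group, so peaks were not compared between nuclei.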

How the data were processed

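Gene and integrant counts were analysed as deposited: per the labels and the study's methods the authors aligned reads of a stranded mRNA kit to hg19 with HISAT2, kept uniquely mapped reads and counted them with featureCounts over genes and Repbase integrants together, with fragments of an integrant merged. Their own analysis then left out integrants that overlap exons, which the 6 integrants described here do. The gastruloid table, also deposited by the authors, holds UMI counts per nucleus, and both it and the peak list come from cellranger-arc and GRCh38. Gene positions were taken from GENCODE lifted to GRCh37, which matched 55665 of 63677 gene IDs, so exon structures can differ from those counted on. RefSeq promoters are of GRCh38.p14.

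Counts were fitted with edgeR 4.0.16 (quasi-likelihood, TMM, in R 4.3.3) over all genes with at least 3 reads in 1 library, using the groups compared. Integrants were fitted likewise with the library sizes and factors of the genes. Calls needed a fold above 2 and p under 0.05 after Benjamini-Hochberg adjustment over all features tested. CPM values are TMM-scaled. DESeq2 1.42.0, limma-voom (limma 3.58.1), other filters and scalings, and fits without each library were alternatives. Tables were joined in Python 3.11.15. Sequences at the transcript starts are not reported here. The fits were tested on simulated counts with a fixed dispersion and changes planted only in features of higher count. That test does not cover groups without reads or the pile-ups of foregut.

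The groups of the foregut libraries were taken from their titles, since other labels of those libraries read as undifferentiated or without sgRNA. Named genes were the 5 genes, their integrants with at least 3 reads in 1 library, the known LTR7-binding factors, transcripts linked to HERVH in earlier work, the 3 largest called rises and falls among other genes starting in HERVH-int or LTR7 with a mean of at least 1 CPM, called genes within 100 kb, and the 3 most alike genes. Members and lists were chosen with earlier results of these data known. No filter on nuclei was set and no doublets were removed here.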

Additional observations from a re-analysis of the deposited data

Results flagged for a closer look

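The response of ESRG to the LTR5 sgRNA differed between foregut and endoderm in the test of that difference, by 8.58 on the log2 scale (SE 1.23, edgeR adjusted p = 0.0277). In endoderm ESRG was lower in all 3 CRISPRi libraries than in every control, and in foregut it had 16 and 33 reads with the sgRNA and 0 in both controls. The ESRG provirus had 0 reads in all 4 foregut libraries. Neither effect was called on its own by edgeR (adjusted p = 0.524 in endoderm and 0.9996 in foregut). The call of the difference was lost in 6 of 13 alternatives. Its fitted size is no measure of the change, since both control foregut libraries are at 0 and foregut reads lay in pile-ups.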

How the results depend on the processing

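Among single genes and integrants, 590 values under an alternative kept direction and call, 22 gained a call, 13 lost one and 19 changed sign. Among counts of calls, 117 stayed within 1.5 times and 18 did not. For CRISPRi against control endoderm, 1 of the 5 genes was called with no filter on low counts and 1 at an unadjusted p under 0.05, against 0. Of the 6 integrants 2 were called with limma-voom, and 1 with integrant library sizes, with at least 10 reads in total and with the replicate number as a block, and 0 to 1 without one library. The share of all integrants called in these settings, and of all genes at an unadjusted p, was not worked out. For CRISPRi against control foregut, 1 gene was called in 1 fit over 12 libraries and at an unadjusted p, and 0 to 1 without one library. For control foregut against hESC, 3 to 6 integrants were called without one library. For the difference between tissues, 0 genes were called with limma-voom and with the replicate block within tissue, and 0 to 2 without one library. Signs changed for HHLA1 between endoderm and hESC (log2 fold change 0.12 with the replicate block, -0.38 to 0.12 without one library), and in CRISPRi against control endoderm without one library for ABHD12B (-0.24 to 0.69), LINC00458 (-0.15 to 0.21), the ABHD12B provirus (-0.47 to 0.23) and the HHLA1 provirus (-0.46 to 0.16). They also changed for LINC00458 in CRISPRi against control foregut (-7.92 to 8.02 without one library), in foregut against hESC (-1.08 with limma-voom, -0.67 with the replicate block, -6.46 to 2.21 without one library) and between tissues (-7.55 to 7.60), and for ABHD12B between tissues (-0.13 to 8.60). The cause was not tested. Over all genes, CRISPRi against control endoderm gave 7 calls, against 47 with DESeq2, 1 with limma-voom, 186 with no filter, 1 with at least 10 reads, 1 in the fit over 12 libraries and 1 to 9 without one library. CRISPRi against control foregut gave 33, against 11 with limma-voom, 209 in the fit over 12 libraries, 19 with the replicate block, 74 with the crossed pairing, chosen after seeing the data, and 16 to 527 without one library. Deviations of equally numbered libraries correlated at 0.03 and 0.06 (endoderm, hESC), -0.07, -0.07 and -0.02 (CRISPRi endoderm), -0.29 (CRISPRi foregut), -0.05 (control foregut, hESC), and 0.21 and 0.18 (control foregut, control endoderm). The last are above 0.1 but are 2 pairs, fewer than the 3 asked for, so the numbers were not taken as pairs. The median gene moved to -0.22 with limma-voom, from -0.09, in foregut against endoderm. Leaving out integrants that overlap exons left none, and a strand-specific count was not run because the integrant table has no strand.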
